A study of Mus musculus with 6 samples.

Results

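Tubulin isotypes, the gene products from which microtubules are built, were followed across 6 RNA libraries of mouse testis. The set comprised 10 genes chosen by symbol from the 14998 genes of the deposited table, 4 that encode alpha-tubulins (Tuba1a, Tuba1b, Tuba1c and Tuba4a) and 6 that encode beta-tubulins (Tubb2a, Tubb2b, Tubb3, Tubb4b, Tubb5 and Tubb6), and all 10 were found and tested. The rule used the symbol alone and no expression value. Control libraries (3) came from testes of male mice with floxed alleles of Lats1 and Lats2 on both chromosomes (Lats1flox/flox;Lats2flox/flox), and knockout libraries (3) came from males with the same floxed alleles plus Amh-cre (Lats1flox/flox;Lats2flox/flox;Amh-cre). Both groups therefore carried the floxed alleles, and only the knockout group carried Cre, whose Amh promoter directs recombination to Sertoli cells, which support germ cells. LATS1 and LATS2, kinases of the Hippo pathway, hold back the coactivators YAP and TAZ, and the question is what their loss in Sertoli cells does to testis RNA. The labels name whole testes while the design text of the series names adrenal glands, the age of the mice is not stated, and no label says that the libraries of a group came from different mice, so p-values reflect only library-to-library spread, which may be technical. Values are the authors' FPKM, fragments scaled by gene length and by library size, so levels of different genes are compared per length, with the limit that the length behind the FPKM matched the annotated exons for 3 of the 10 genes (Tubb3, Tuba1b and Tubb4b) and 48.2% of all genes, and that for Tuba4a 2053 bases stood behind the FPKM against 3701 annotated.

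Microtubules are hollow polymers of alpha-tubulin and beta-tubulin heterodimers. Mammals carry several genes for each subunit, and their products differ mainly in the acidic carboxy-terminal tail, which projects from the lattice and is the site of glutamylation and, in most alpha-tubulins, of removal and re-addition of a terminal tyrosine. Sertoli cells hold dense arrays of microtubules along their long axis, which carry organelles and developing germ cells, and dividing and differentiating germ cells build spindles, the manchette and the flagellum from tubulin. TUBB3, the neuronal class III isotype, is also found in Sertoli cells. Cells adjust tubulin mRNA to the pool of free subunits through TTC5, a factor that reads the first residues of nascent tubulin on the ribosome.

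The coding ends show what the isotypes share and where they part. The first 30 coding bases of Tuba1a and Tubb5 are given for the amino-terminal signal that TTC5 reads, with the first 4 codons in capitals (GENCODE M21 transcripts, GRCm38).
Tuba1a: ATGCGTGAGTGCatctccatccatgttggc
Tubb5: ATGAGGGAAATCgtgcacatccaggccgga
The fourth codon was TGC in 4 of 4 alpha genes and ATC in 5 of 5 beta genes shown here (Tubb6 is not shown). A link of these codons to the changes was not tested.

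The last 60 coding bases, which encode the carboxy-terminal tail and end with the stop codon, are given for 7 of the genes because they tell the isotypes apart. In-frame GAA and GAG codons, which encode the glutamates that can be glutamylated, are in capitals.
Tuba1c: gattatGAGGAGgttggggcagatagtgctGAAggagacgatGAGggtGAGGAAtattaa
Tuba4a: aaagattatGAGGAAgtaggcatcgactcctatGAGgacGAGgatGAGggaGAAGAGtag
Tubb2a: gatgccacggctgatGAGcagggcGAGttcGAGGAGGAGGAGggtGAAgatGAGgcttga
Tubb2b: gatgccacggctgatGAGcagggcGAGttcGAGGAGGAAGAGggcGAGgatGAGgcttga
Tubb3: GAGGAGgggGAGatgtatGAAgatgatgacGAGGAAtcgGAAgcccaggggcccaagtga
Tubb4b: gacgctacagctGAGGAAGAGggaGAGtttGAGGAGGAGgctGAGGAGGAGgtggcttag
Tubb5: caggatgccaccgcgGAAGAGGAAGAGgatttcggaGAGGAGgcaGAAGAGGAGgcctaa
Of the 19 sense codons shown for each gene, glutamate codons numbered 10 in Tubb4b, 9 in Tubb5, 8 in Tubb2a and Tubb2b, 7 in Tubb3 and Tuba4a, and 6 in Tuba1c. The last sense codon was the tyrosine codon TAT in Tuba1c and GAG in Tuba4a, whose product is made without the terminal tyrosine. Tubb3 was the beta gene whose last sense codon was AAG, where the other 4 beta genes shown ended in GCT or GCC.

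The likeness of the coding sequences limits which levels can be assigned to 1 gene. Coding sequences were 98.3% identical between Tuba1a and Tuba1b, 97.9% between Tuba1b and Tuba1c, 97.1% between Tuba1a and Tuba1c and 96.5% between Tubb2a and Tubb2b, whereas no other pair of the 10 exceeded the 85.7% of Tubb3 and Tubb6. Stretches of 100 bases were compared in the sense direction only, so antisense matches were not counted. Every such stretch in the main transcripts of Tubb3, Tubb5, Tubb6 and Tuba4a (100% each) was found in no transcript of another annotated gene. For Tuba1a, Tuba1b and Tuba1c the share of stretches found in no other gene was 34.9%, 30.5% and 46.6%. For Tubb2a, Tubb2b and Tubb4b it was 63.1%, 72.3% and 70.8%, the last because of pseudogenes such as Tubb4b-ps1. The treatment of reads that map to several genes is not given in the sources used here, so the levels of Tuba1a, Tuba1b, Tuba1c, Tubb2a, Tubb2b and Tubb4b may miss or misplace reads, and their order by level is uncertain. Exons of the antisense neighbour Stk16 cover 37.3% of the annotated Tuba4a exon bases, and reads there cannot be told apart unless strand was used. Exons of the gene model Gm49450, on the same strand, cover 26.2% of the exon bases of Tuba1a and 22.7% of those of Tuba1b, and strand would not separate reads there.

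**Figure D1:**
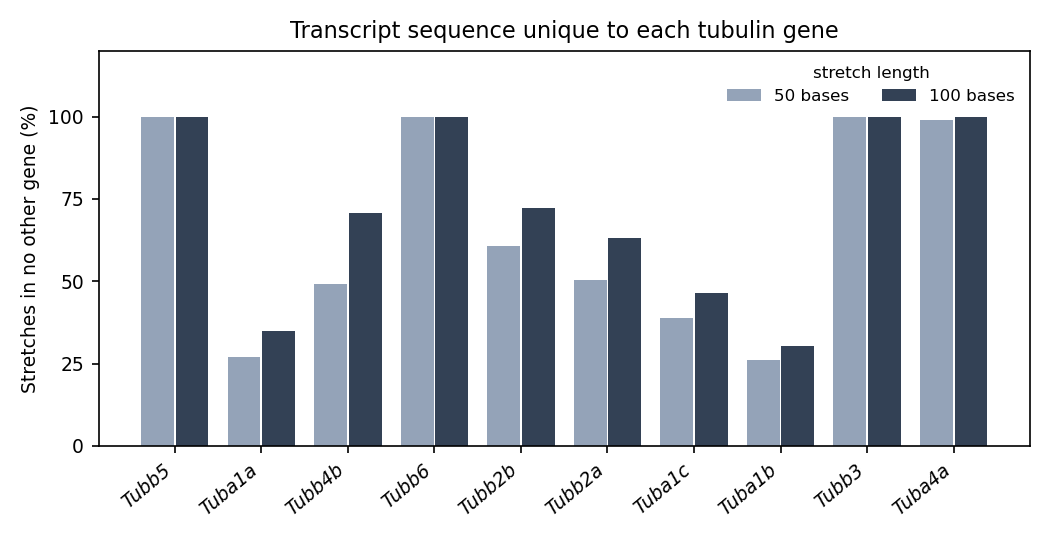
Share of stretches of 50 and of 100 bases in the main transcript of each tubulin gene (y axis, percent) that occur in transcripts of no other annotated gene, with genes in order of their control level. Only matches in the sense direction were counted. Tubb5, Tubb6, Tubb3 and Tuba4a stand near 100% at both lengths and Tuba1a and Tuba1b are at 34.9% and 30.5% for 100 bases.

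Promoter windows were read for 8 of the 10 genes (RefSeq, GRCm38.p6, 250 bases before to 50 after the start). The window of Tubb3, the gene with the largest rise, lies at chr8:123411303-123411602 on the + strand, and that of Tubb5, the most abundant gene, at chr17:35838252-35838551 on the - strand. Capitals mark matches to the SP1 box GGGCGG, to the CCAAT box, to the letters GGAATG bound by TEAD (the DNA-binding partner of YAP and TAZ), to the TATA box TATAAA and to the CArG box of serum response factor, each read on both strands.
Tubb3: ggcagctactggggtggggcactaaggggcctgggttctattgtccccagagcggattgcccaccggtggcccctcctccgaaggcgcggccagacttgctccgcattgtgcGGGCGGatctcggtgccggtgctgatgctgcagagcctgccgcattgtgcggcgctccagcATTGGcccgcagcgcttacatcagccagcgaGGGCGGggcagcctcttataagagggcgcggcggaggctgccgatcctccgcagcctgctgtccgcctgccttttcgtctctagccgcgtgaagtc
Tubb5: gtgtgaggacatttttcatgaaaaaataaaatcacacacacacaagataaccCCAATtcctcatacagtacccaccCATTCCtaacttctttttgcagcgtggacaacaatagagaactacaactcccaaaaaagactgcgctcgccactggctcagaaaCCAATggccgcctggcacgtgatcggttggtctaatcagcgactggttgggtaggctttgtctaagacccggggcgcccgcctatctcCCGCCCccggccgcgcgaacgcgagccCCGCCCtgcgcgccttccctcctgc
The TEAD letters occurred in 1 of the 8 windows, that of Tubb5, where 14.7% of 32851 promoter windows hold them. GGGCGG occurred in 7 of 8 windows, all but Tuba1c, against 35.7% of all windows, CCAAT in 5 of 8 against 37.4%, and TATAAA in Tubb2a and Tubb4b against 13.6%, while the CArG box was in 0 of 8 windows against 1.63%. The windows with GGGCGG were those of Tubb3, Tubb5, Tubb2a and Tuba1a, which rose, and of Tubb4b, Tuba1b and Tuba4a, which did not rise. No windows were read for Tubb2b and Tubb6, which rose, and a link of any of these letters to the changes was not tested.

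Depth and the state of the libraries frame the values. A length that made the FPKM of all 6 libraries whole reads was found for every gene (within 0.003 reads). Where the annotated length did not, the smallest such length was taken, and the reads of that gene are then a lower bound. The library totals implied by the FPKM were 9490735 to 13620087 reads for control libraries and 11045693 to 12322844 for knockout libraries. Reads recovered over all genes added up to at least 7330143 to 10264399 per control library and 8989808 to 9918104 per knockout library. The 10 tubulin genes had 64 (Tuba4a) to 5429 (Tubb5) reads in a library. Lats1 fell from 15.7 ± 0.569 to 12.7 ± 0.239 FPKM (SD, n = 3 each, limma adjusted p = 0.000474) and Lats2 rose 1.15-fold to 17.8 to 18.2 FPKM (log2 fold change 0.20, limma adjusted p = 0.0126), opposite to the loss its label names. These are levels over the whole gene and organ, which do not check a deletion in 1 cell type, so directions below are those of the libraries labelled knockout. Markers of testis cell types were present in control libraries, and many differed between the groups, where 35.2% of all genes tested were called higher and 33.7% lower in knockout libraries. Of 16 Sertoli cell markers 11 fell and 5 rose (summed level 551 to 602 FPKM in control and 339 to 373 in knockout libraries), of 11 spermatogonia markers 9 fell (256 to 306 against 84.4 to 118 FPKM in sum, with Nanos2 and Nanos3 not analysed here), and of 8 spermatocyte and spermatid markers 6 fell (64.4 to 78.9 against 24.0 to 45.6 FPKM, with Tnp2, Prm1, Prm2, Acr and Acrv1 not analysed here). All 7 Leydig cell markers fell (737 to 824 against 319 to 368 FPKM), all 13 macrophage markers rose (65.8 to 67.5 against 525 to 608 FPKM), and all 6 mesothelial markers rose (44.6 to 46.7 against 210 to 229 FPKM). Of 6 peritubular myoid markers 3 rose and 2 fell (149 to 175 against 214 to 239 FPKM), of 7 endothelial markers 3 rose and 1 fell (103 to 111 against 115 to 131 FPKM), of 5 neuron and Schwann cell markers 1 rose and 3 fell (21.5 to 26.4 against 26.8 to 33.4 FPKM, with Elavl3, Snap25, Th and Dbh among those not analysed here), and of 7 erythroid and platelet markers 1 rose (347 to 387 against 369 to 421 FPKM, with Itga2b and Gp9 not analysed here). The counts are of markers tested, while the summed levels take in every marker measured, also those too low to be tested. These were 12 spermatogonia, 7 neuron and Schwann cell and 8 erythroid and platelet markers. No marker in the table was at 0 in every library of a group. In a whole organ, fewer cells of a type and less RNA per cell cannot be told apart, and the part of these shifts in the tubulin results was not tested.

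Among the genes of the set, tubulin mRNA was dominated by a few isotypes, and Tubb5 and Tuba1a led in both groups. The alpha-tubulin genes Tuba3a and Tuba3b, outside the set and not ranked here, had control means of 26.7 and 19.6 FPKM. Tubb5, the broadly expressed class I beta-tubulin, was highest with a control mean of 119 FPKM, followed by Tuba1a, an alpha-tubulin prominent in developing neurons, at 54.3 FPKM. Tubb4b (class IVb, a main beta-tubulin of cilia and flagella) and Tubb6 (class V) followed at 37.6 and 37.1 FPKM, and their ranges over the control libraries overlapped. Tubb2b had 24.7 and Tubb2a 20.8 FPKM, Tuba1c and Tuba1b 14.5 and 14.1 FPKM with overlapping ranges, Tubb3 9.81 to 10.3 FPKM and Tuba4a, known from blood platelets and muscle, 4.01 FPKM. In knockout libraries Tubb6 (46.9 FPKM) and Tubb2b (35.8 FPKM) stood above Tubb4b (33.7 FPKM), and Tubb3 moved from place 9 to place 7, with a range that overlapped that of Tuba1b next to it.

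**Figure D2:**
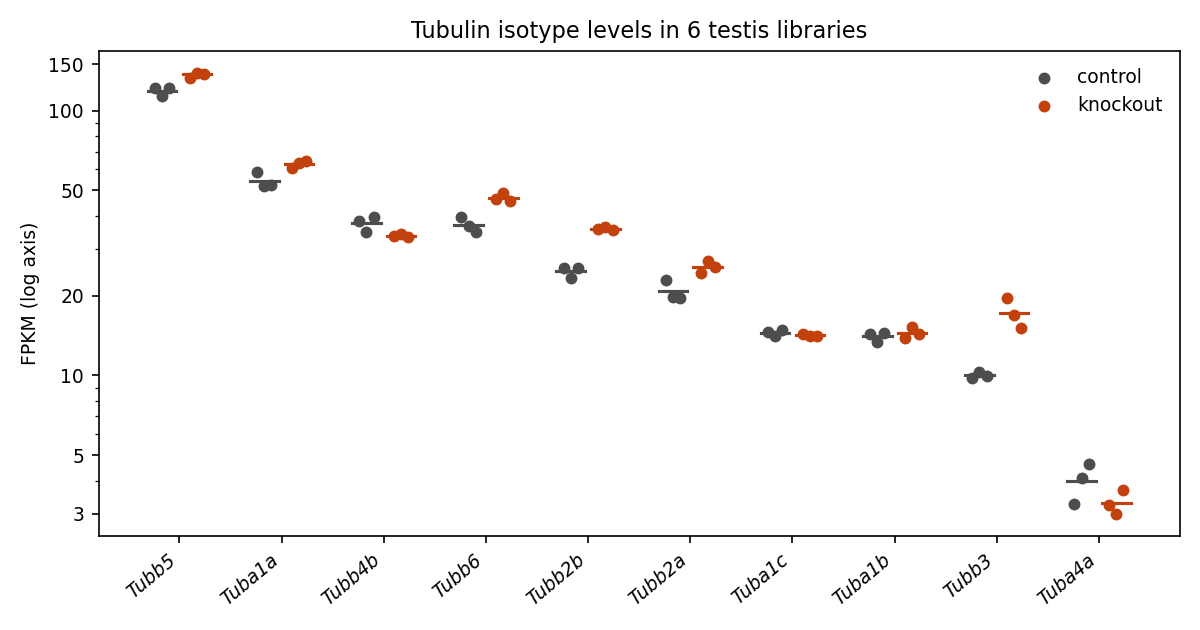
FPKM (y axis, log scale) of each tubulin isotype gene in 3 control (grey) and 3 knockout (orange) libraries. Points are libraries and bars are group means. All 3 knockout points lie above all 3 control points for Tubb5, Tuba1a, Tubb6, Tubb2b, Tubb2a and Tubb3, below them for Tubb4b, and the groups overlap for Tuba1b, Tuba1c and Tuba4a.

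Of the 10 genes 6 rose in knockout libraries, 1 fell and 3 did not pass the test (limma on log2(FPKM + 1) with Benjamini-Hochberg adjustment over 13778 genes, threshold 0.05). Over all genes tested 35.2% were called higher, 33.7% lower and 68.9% in either direction, so 7 called of 10 is close to the background of this comparison. The split of all calls moved with the settings, from 4850 higher and 4642 lower to 4048 and 5630 under median-ratio scaling and to 2954 and 1826 among genes with a mean of 10 FPKM or more. The groups did not overlap in 7 of the 10 genes, beside 74.3% of all genes tested, and 6 of them were higher in knockout libraries, beside 37.9% of all genes, and 1 lower, beside 36.3%. The median log2 fold change of the 10 genes was 0.20, beside 0.01 over all genes, and the median size of a change over all genes was 0.30. The largest log2 fold changes among the isotypes were those of Tubb3 (0.72) and Tubb2b (0.52).

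Among the 6 beta-tubulin genes of the set 5 rose, beside 35.2% of all genes tested called higher. All 6 have a mean of at least 10 FPKM, a range in which calls leaned upward. There 61.8% of the calls were higher in knockout libraries, beside 51.1% of the calls over all genes tested. Tubb4a, a beta-tubulin gene outside the set, fell. Tubb3 (chromosome 8, 123411424 to 123422015, + strand, GRCm38) had 9.81, 10.3 and 9.99 FPKM in control libraries 1 to 3 and 19.7, 16.9 and 15.1 FPKM in knockout libraries 1 to 3. The control values lie close together, the knockout values are spread more widely, and all of them are above the controls. The SD was 0.244 FPKM in control libraries, against 2.3 in knockout libraries (n = 3 each), and the rise was 1.72-fold, a log2 fold change of 0.72 (SE 0.08, limma adjusted p = 7.82e-05). Of 5 neuron and Schwann cell markers tested, cell types in which TUBB3 is abundant, 3 fell and 1 rose. The summed level of the 7 markers measured was higher in knockout libraries (26.8 to 33.4 against 21.5 to 26.4 FPKM). The part of any cell type in the rise of Tubb3 was not tested. The authors' deposited table gives Tubb3 a log2 fold change of 0.82 with an FDR of 2.35e-08.

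Tubb2b (chromosome 13, 34127008 to 34130354, - strand), a class II beta-tubulin known from developing neurons, had 25.4, 23.3 and 25.5 FPKM in control libraries, against 35.8, 36.3 and 35.3 in knockout libraries. The groups are far apart for their spread, and the rise was 1.45-fold (log2 fold change 0.52, SE 0.05, limma adjusted p = 1.37e-05). Its neighbour and near copy Tubb2a (chromosome 13, 34074301 to 34078008, - strand) had 22.9, 19.8 and 19.6 FPKM in control libraries, against 24.3, 27.1 and 25.7 in knockout libraries. The groups of Tubb2a do not overlap but come within a narrow gap, and the rise was 1.24-fold (log2 fold change 0.30, SE 0.07, limma adjusted p = 0.00364). Because the pair shares sequence, reads could pass between these genes, and their sum made up 18.2% ± 0.46 of beta-tubulin FPKM in control and 20.8% ± 0.208 in knockout libraries (SD, n = 3 each).

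Tubb6 (chromosome 18, 67390717 to 67402748, + strand), a class V isotype that in cultured mammalian cells disrupts microtubules when overproduced, had 39.7, 36.7 and 34.8 FPKM in control libraries, against 46.3, 48.8 and 45.6 in knockout libraries. All knockout values exceed all control values, and the rise was 1.26-fold (log2 fold change 0.33, SE 0.05, limma adjusted p = 0.00061). Tubb5 (chromosome 17, 35833926 to 35838306, - strand) had 122, 114 and 122 FPKM in control libraries, against 133, 139 and 138 in knockout libraries. The rise of Tubb5 was 1.14-fold (log2 fold change 0.19, SE 0.05, limma adjusted p = 0.00735), small beside its level, which rests on 3831 to 5429 reads per library. Under median-ratio scaling the log2 fold change of Tubb5 was smaller, 0.11 (limma adjusted p = 0.021).

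Tubb4b (chromosome 2, 25222160 to 25224702, - strand) went the other way. It had 38.4, 34.7 and 39.8 FPKM in control libraries, against 33.7, 34.2 and 33.3 in knockout libraries, so that control library 2 lies just above the knockout libraries. The fall was 1.12-fold (log2 fold change -0.15, SE 0.05, limma adjusted p = 0.0287). Spermatogonia markers (9 of 11 lower) and spermatocyte and spermatid markers (6 of 8 lower) fell in the same libraries, and their part in the fall of Tubb4b was not tested. The call was lost without control library 1 (limma adjusted p = 0.0805), control library 3 (0.075), knockout library 1 (0.0718), knockout library 2 (0.0567) or knockout library 3 (0.0865), and without control library 2 it was 0.0024. The size of the fall also depended on scaling, with a log2 fold change of -0.23 under median-ratio scaling (limma adjusted p = 0.00124). The authors' deposited table does not call Tubb4b (log2 fold change -0.11, FDR 0.235), and it calls the other 9 genes as here, with 60.5% of its genes at an FDR under 0.05.

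Among the 4 alpha-tubulin genes of the set only Tuba1a passed the test. Tuba1a (chromosome 15, 98949841 to 98953551, - strand) had 58.7, 52.0 and 52.2 FPKM in control libraries, against 60.7, 63.5 and 64.5 in knockout libraries. Control library 1 comes close to the knockout libraries, and the rise was 1.16-fold (log2 fold change 0.21, SE 0.06, limma adjusted p = 0.00894). Under median-ratio scaling the log2 fold change of Tuba1a was smaller, 0.13 (limma adjusted p = 0.0425). Its neighbours in the same cluster, Tuba1b (chromosome 15, 98931425 to 98934565, - strand) and Tuba1c (chromosome 15, 99029891 to 99038105, + strand), are broadly expressed genes used in dividing cells.

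Tuba1b had 14.4, 13.4 and 14.5 FPKM in control libraries, against 13.8, 15.2 and 14.4 in knockout libraries, with a log2 fold change of 0.03 and a 95% interval from -0.09 to 0.15 (limma adjusted p = 0.615). Tuba1c had 14.6, 14.1 and 14.9 FPKM in control libraries, against 14.3, 14.1 and 14.1 in knockout libraries, with a log2 fold change of -0.04 and an interval from -0.13 to 0.06 (limma adjusted p = 0.469). Their groups overlap, and both intervals include a change of 0. Under median-ratio scaling Tuba1c was called lower (log2 fold change -0.11, limma adjusted p = 0.0289), and Tuba1b turned to -0.05 (limma adjusted p = 0.407).

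Tuba4a (chromosome 1, 75214974 to 75219253, - strand) was the lowest of the set, with 3.28, 4.11 and 4.63 FPKM in control libraries, against 3.24, 3.00 and 3.70 in knockout libraries. The control libraries spread more than the difference between the groups, and the interval of the log2 fold change ran from -0.47 to 0.05 (limma adjusted p = 0.131, and 0.0273 without control library 1). With 64 to 115 reads in a library, a change of this size was not resolved for Tuba4a.

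**Figure D3:**
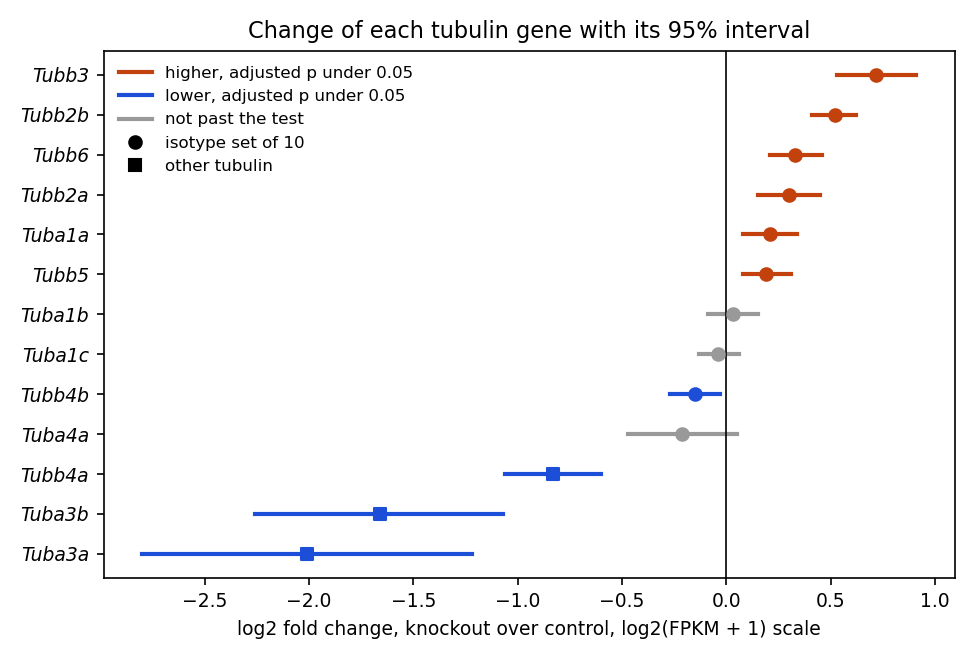
Log2 fold change, knockout over control, on the log2(FPKM + 1) scale (x axis) with its 95% interval for the 10 isotype genes (circles) and for Tuba3a, Tuba3b and Tubb4a (squares). Orange marks genes called higher, blue genes called lower and grey genes not past the test. The rises reach 0.72 in Tubb3, and the falls of the other tubulins reach -2.01 in Tuba3a.

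The sums over the 10 genes depended on which genes were counted and on the scaling. The 6 beta genes added up to 258, 239 and 252 FPKM in control libraries, against 292, 302 and 293 in knockout libraries, 1.19-fold higher in knockout libraries. The 4 alpha genes added up to 91.1, 83.6 and 86.3 FPKM in control libraries, against 92.1, 95.8 and 96.6 in knockout libraries, 1.09-fold higher with a narrow gap between the nearest libraries, 91.1 and 92.1 FPKM. The ratio of the beta to the alpha sum went from 2.87 ± 0.0451 to 3.12 ± 0.076 (SD, n = 3 each). For all 3 quantities the groups did not overlap, and the exact two-sided permutation test gave p = 0.1, the smallest that 3 libraries against 3 allow (Benjamini-Hochberg 0.118 over the 13 sums and shares compared), so none could pass a threshold of 0.05. When the other alpha-tubulin and beta-tubulin genes in the table (Tuba3a, Tuba3b and Tubb4a) were counted too, the alpha sum turned round, to 133 ± 9.2 FPKM in control libraries, against 107 ± 4.96 in knockout libraries, while the beta sum stayed higher in knockout libraries at 297 ± 5.47 against 253 ± 9.6 FPKM. Under median-ratio scaling of the libraries the alpha sums of the 4 genes overlapped between the groups (87.5 to 92.8 FPKM in control libraries and 90.0 to 93.3 in knockout libraries, 1.03-fold higher), and the beta sum was 1.12-fold higher in knockout libraries, without overlap.

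Shares within each pool do not depend on the scaling of a library, and several differed between the groups without overlap. Tubb4b made up 14.9%, 14.5% and 15.8% of beta-tubulin FPKM in control and 11.5%, 11.3% and 11.3% in knockout libraries. Tubb2b went from 9.91% ± 0.207 to 12.1% ± 0.135 and Tubb3 from 4.03% ± 0.254 to 5.83% ± 0.813 (SD, n = 3 each). Tubb5 held 47.8% ± 0.675 of the pool in control and 46.2% ± 0.911 in knockout libraries, so its share was lower although its level rose. Tubb6 went from 14.9% ± 0.896 to 15.8% ± 0.307, and the shares of Tubb2a overlapped between the groups (8.31% ± 0.558 and 8.68% ± 0.339). In the alpha pool of 4 genes Tuba1a went from 62.4% ± 2.0 to 66.3% ± 0.444, Tuba1b from 16.2% ± 0.53 to 15.2% ± 0.519 and Tuba1c from 16.7% ± 0.637 to 14.9% ± 0.538, and the shares of Tuba4a overlapped. The shares of Tuba1b and Tuba1c turned round when Tuba3a and Tuba3b were counted in the pool, from 10.6% ± 0.316 to 13.5% ± 1.23 and from 10.9% ± 0.457 to 13.2% ± 0.609, and that of Tubb5 overlapped between the groups when Tubb4a was counted. The exact permutation p was 0.1 for the 8 shares that did not overlap, 0.2 for Tuba4a and 0.4 for Tubb2a.

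**Figure D4:**
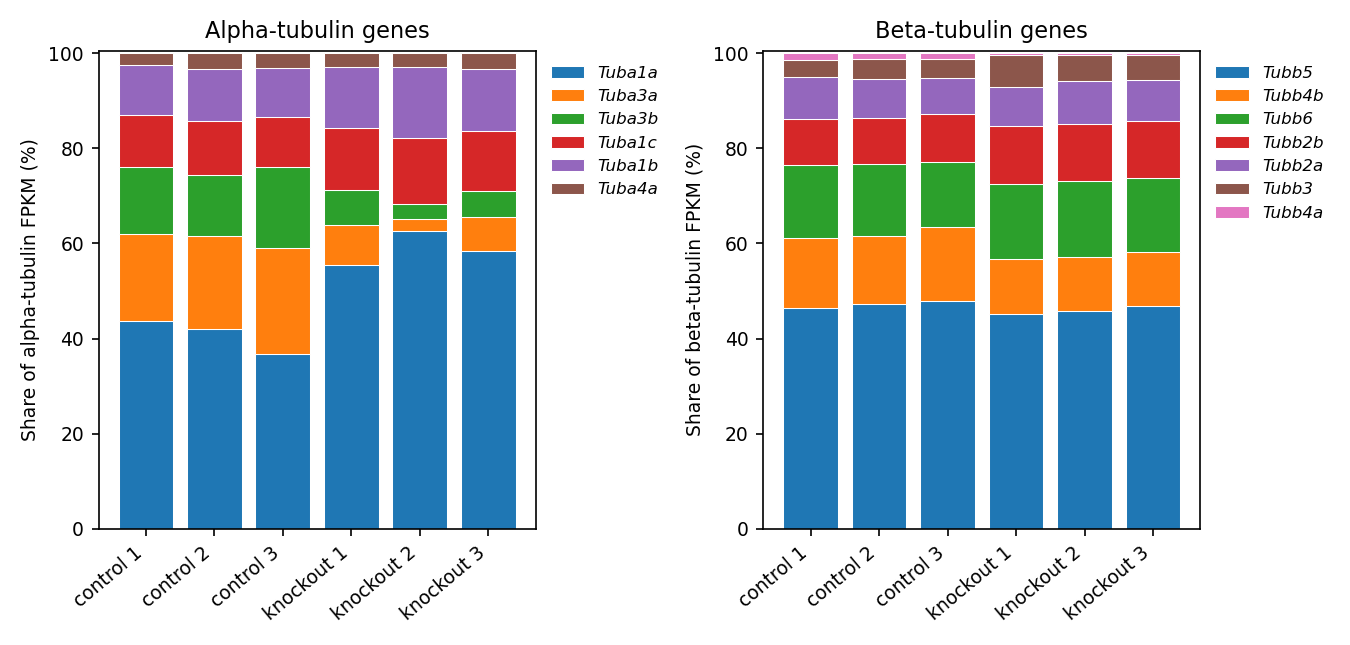
Share of each gene in the summed alpha-tubulin FPKM (left) and beta-tubulin FPKM (right) of each library, in percent, with Tuba3a, Tuba3b and Tubb4a included. On the left Tuba3a and Tuba3b shrink from at least 18.3% and 12.9% of each control pool to at most 8.27% and 7.45% of each knockout pool, and on the right Tubb4b shrinks from 14.9% to 11.3%.

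Most measured tubulin genes outside the set of 10 fell. The 7 measured were Tuba3a, Tuba3b, Tubb4a, the gamma-tubulin genes Tubg1 and Tubg2, the delta-tubulin gene Tubd1 and the epsilon-tubulin gene Tube1. Tuba8, Tubal3 and Tubb1 were not analysed here. Of the 7 measured, 6 fell and Tubd1 did not pass (median log2 fold change -0.56), where 33.7% of all genes were called lower. None rose by limma with or without adjustment of the p-values or by limma-voom on whole reads. Tuba3a, an alpha-tubulin gene of the male germline, had 24.6, 24.0 and 31.5 FPKM in control libraries, against 9.03, 2.52 and 8.07 in knockout libraries (4.08-fold lower, limma adjusted p = 0.000846). Its near copy Tuba3b had 18.8, 16.0 and 24.1 FPKM in control libraries, against 8.14, 3.16 and 5.96 in knockout libraries (3.41-fold lower, limma adjusted p = 0.000479). Both genes were lowest in knockout library 2 and highest in control library 3, and their coding sequences are 97.0% identical. Tubb4a, known from brain, fell from 3.20 ± 0.287 to 1.36 ± 0.21 FPKM (2.35-fold lower, limma adjusted p = 0.000102). Spermatogonia markers (256 to 306 against 84.4 to 118 FPKM in sum) and spermatocyte and spermatid markers (64.4 to 78.9 against 24.0 to 45.6 FPKM) were lower in the same libraries, and their part in the fall of these tubulins was not tested.

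Genes that fold, tune and modify tubulin gave a mixed picture. Among 21 folding genes there were 11 rises, 3 falls and 7 that did not pass (median 0.12), beside 35.2% of all genes called higher, 33.7% lower and 68.9% in either direction. The tubulin cofactor gene Tbcc rose 1.38-fold to 7.52 ± 0.341 FPKM, Pfdn4, a prefoldin subunit that hands tubulin to the chaperonin, 1.36-fold to 9.79 ± 0.147 FPKM, and Arl2, a GTPase that works with the cofactors, 1.30-fold to 7.14 ± 0.351 FPKM (limma adjusted p = 0.000938, 0.000334 and 0.00242). Tbcd, a cofactor that binds beta-tubulin, fell 1.24-fold, the chaperonin gene Cct8 1.16-fold and Tbcel, a relative of cofactor E, 1.13-fold (limma adjusted p = 0.00942, 0.0335 and 0.018). The call of Cct8 was lost without any 1 library other than control library 2 (adjusted p of 0.0651 to 0.0908), and that of Tbcel without control library 2, knockout library 2 or knockout library 3 (0.0644, 0.0503 and 0.0697).

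In the list of tubulin mRNA autoregulation, 4 of 13 rose, 6 fell and 3 did not pass (median -0.11), beside 35.2% of all genes called higher and 33.7% lower. Ttc5, the nascent-tubulin reader, had 13.1, 12.8 and 13.2 FPKM in control libraries, against 15.3, 14.9 and 14.9 in knockout libraries, a 1.15-fold rise (limma adjusted p = 0.00295), and Scaper, the adaptor that joins it to the CCR4-NOT deadenylase, fell 1.35-fold from 16.3 ± 2.27 FPKM (limma adjusted p = 0.00364). The deadenylase subunit genes Cnot7 and Cnot8 (log2 fold changes 0.31 and 0.19, limma adjusted p = 0.000171 and 0.0115) rose, and the subunit genes Cnot9 and Cnot3 fell 1.32-fold and 1.31-fold. Cnot8 did not pass under median-ratio scaling (adjusted p = 0.0629).

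Of 22 tubulin modifying enzymes tested 12 fell, 4 rose and 6 did not pass (median -0.23), where 33.7% of all genes were called lower and 35.2% higher. Ttll13, a polyglutamylase gene, had 2.17, 1.93 and 2.67 FPKM in control libraries, against 0.207, 0.254 and 0.180 in knockout libraries (limma adjusted p = 8.46e-06). Agbl5 and Agbl2, genes of cytosolic carboxypeptidases that trim tubulin tails, fell 2.24-fold from 12.5 ± 1.16 FPKM and 3.14-fold from 2.39 ± 0.2 FPKM (limma adjusted p = 4.83e-06 and 3.02e-05). Tpgs1, a subunit of a polyglutamylase complex, rose 1.66-fold, Ttll12, a ligase-like gene, 1.39-fold, and the deacetylase gene Sirt2 1.35-fold.

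Among genes that nucleate, destabilise or sever microtubules, more were called lower than higher. Among 21 nucleation genes there were 13 falls, 4 rises and 4 that did not pass (median -0.21, beside 33.7% of all genes called lower and 35.2% higher). Haus7, a subunit of the augmin complex that branches microtubules, fell 1.87-fold from 34.7 ± 1.79 FPKM, Pcnt, the pericentrin gene of the centrosome, 1.73-fold from 15.1 ± 0.425 FPKM, and Haus5 1.53-fold (limma adjusted p = 1.77e-06, 1.76e-06 and 0.000357). Nedd1, Tubgcp5 and Haus2 rose 1.20-fold, 1.19-fold and 1.16-fold. Of 16 destabilising and severing genes 10 fell and 6 did not pass (median -0.26), and none rose by limma with or without adjustment or by limma-voom. Katnal2, a katanin-like gene needed for sperm formation in mice, fell from 2.64 ± 0.479 to 0.437 ± 0.148 FPKM, Fignl2, a fidgetin-like severing gene, 1.74-fold, and Kif18a, a kinesin that limits spindle microtubule length, 1.53-fold (limma adjusted p = 2.94e-05, 0.000784 and 0.000205).

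Microtubule stabilisers and end binders held the largest changes of the microtubule lists in the upward direction. Of 23 measured 8 rose, 11 fell and 4 did not pass (median -0.14), against 35.2% higher and 33.7% lower over all genes. Map6, whose product protects microtubules from cold, had 2.53, 2.65 and 2.65 FPKM in control libraries, against 12.2, 12.5 and 11.6 in knockout libraries, 4.64-fold higher (limma adjusted p = 5.74e-08). Map2, known from dendrites, had 8.78, 9.19 and 7.50 FPKM in control libraries, against 26.1, 27.5 and 27.3 in knockout libraries, 3.18-fold higher (limma adjusted p = 2.54e-07), and Mtus1, a microtubule-associated tumour suppressor gene, rose 1.80-fold. In the other direction Map7d2, of a family that recruits kinesin-1, fell 5.30-fold from 16.6 ± 0.289 FPKM, Camsap3, which caps minus ends in polarised epithelial cells, 2.91-fold from 11.8 ± 0.255 FPKM, and the tau gene Mapt 3.48-fold from 3.21 ± 0.214 FPKM (limma adjusted p = 6.11e-06, 2.87e-07 and 1.73e-05).

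Of 28 genes of cytoplasmic dynein, dynactin and kinesin-1, the motors that run on microtubules, 13 rose, 8 fell and 7 did not pass (median 0.13), against 35.2% higher and 33.7% lower over all genes. Dynlt3, a dynein light chain gene, rose 1.74-fold to 48.5 ± 1.47 FPKM, the dynactin gene Dctn3 1.39-fold and Kif5b, the broadly expressed kinesin-1 heavy chain, 1.37-fold to 40.2 ± 1.7 FPKM (limma adjusted p = 6.15e-07, 3.47e-05 and 7.57e-05). Kif5a, the neuronal kinesin-1 heavy chain, fell 5.79-fold from 5.76 ± 0.401 FPKM and Klc3, a kinesin light chain of spermatids, 1.83-fold (limma adjusted p = 8.42e-07 and 0.000505). Dynlrb2, a light chain gene tied to cilia and meiosis, had 4.67, 4.44 and 3.00 FPKM in control libraries, against 0.164, 0 and 0 in knockout libraries. Germ cell markers were lower and macrophage and mesothelial markers higher in the same libraries, as given above, and their part in these lists was not tested.

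**Figure D5:**
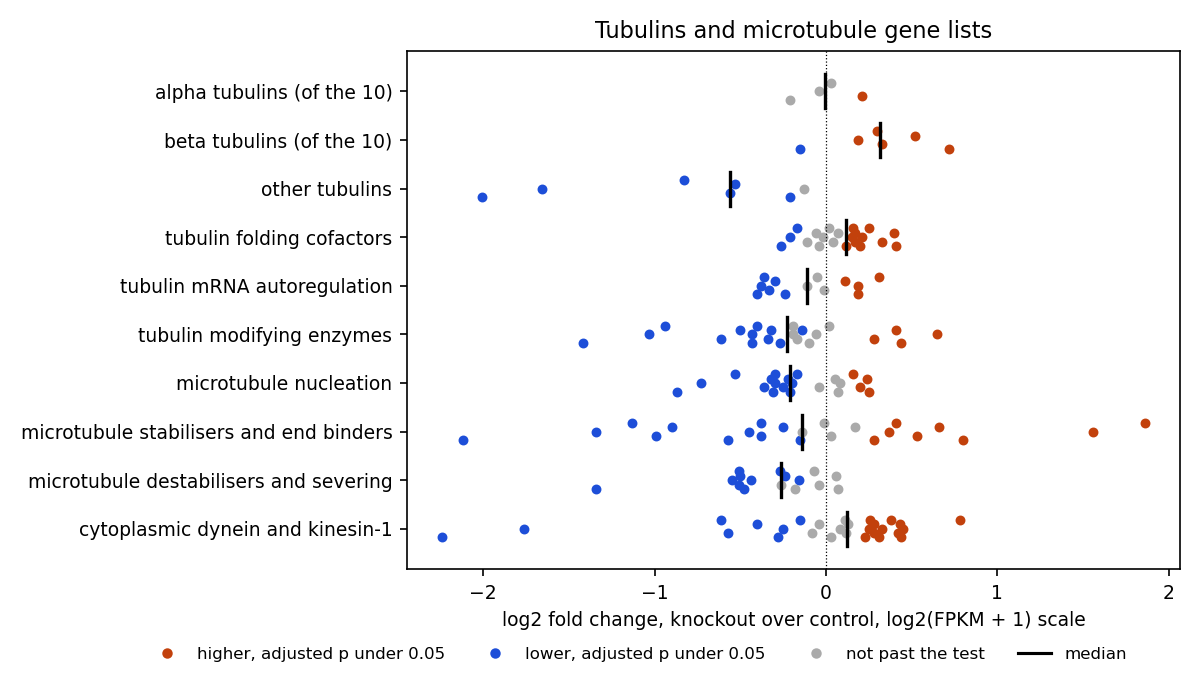
Log2 fold change, knockout over control, on the log2(FPKM + 1) scale (x axis) of each tested gene in the 2 groups of isotypes and in 8 lists of other tubulin and microtubule genes. Orange points were called higher, blue points lower and grey points did not pass, and black bars are medians, which run from -0.56 in the other tubulins to 0.31 in the beta-tubulins of the set.

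The genes with the profiles closest to those of Tubb3, the largest rise, and Tubb4b, the only fall of the set past the test, were found by the Euclidean distance between mean-centred log2(FPKM + 1) values over the 6 libraries, among 6787 other genes whose mean reached 10 FPKM. For Tubb3 they were Tmem150a, Rab20 and Ammecr1, at distances of 0.197, 0.198 and 0.211, with rises of 1.81-fold, 1.73-fold and 1.73-fold. For Tubb4b they were Tomm70a, Mrpl3 and Srsf9, at 0.0327, 0.0568 and 0.0581, and Srsf9 did not pass the test. All 6 libraries and the same contrast shape these distances, which are a description.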

How the data were processed

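RNA of whole testes was sequenced in 6 libraries. Per the labels' protocols reads were aligned with STAR, and the submitters' processing notes name GRCm38 and DESeq2 1.22.2. How reads were counted, whether strand was used and what became of multi-mapped reads is not stated in the labels. The deposited table holds the authors' FPKM per library and their log2 group means, log2 fold changes, p-values and FDR and −log10 p-values, per the file headers. Columns named control and mutant, with a number, were matched to the titles.

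FPKM are not counts, so limma 3.58.1 (R 4.3.3) with a trended variance was fitted to log2(FPKM + 1) of each gene whose mean reached 1 FPKM, two-sided, with Benjamini-Hochberg adjustment over 13778 genes. This scale understates the change of low genes. Fold changes are ratios of mean FPKM. Whole reads were recovered from the steps of the FPKM, with the smallest length that gave whole reads where the annotated length did not, so that such reads are a lower bound. The fits were also run on simulated data in which a small part of the genes changed. Far more genes were called in these data, so that run does not check the calls made here. Sums and shares were compared with an exact permutation test.

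The genes, the lists and the rule for named genes were chosen with earlier results of these data known. All 10 isotypes are named. From each list the 3 largest rises and 3 largest falls past the test are named. Of 177 list entries 164 were found, 17 of them by Ensembl ID. Medians of lists are log2 fold changes on the log2(FPKM + 1) scale. Main transcripts and coding sequences are from GENCODE M21 (GRCm38), and coordinates are those of the table, counted from 1. Some sequences and 1 marker are not reported here. Alternatives were other pseudocounts, filters and scaling, limma-voom with TMM on whole reads, a replicate block, a stricter threshold and leaving out each library.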

Additional observations from a re-analysis of the deposited data

How the results depend on the processing

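Of 129 alternative values of the 10 isotype genes, 119 kept direction and side of the threshold, 5 lost the call (all Tubb4b, without 1 library), 2 gained one (Tuba1c at -0.11 under median-ratio scaling, Tuba4a without control library 1) and 3 changed sign. All 3 were of Tuba1b, which did not pass in any of them, at -0.05 under median-ratio scaling and within -0.00 to 0.06 without 1 library, where it was just below 0 without control library 2 or knockout library 2. The 6 rises passed under every alternative run, while falls numbered 2 under median-ratio scaling, 0 at an adjusted p of 0.01 (chosen after seeing the data) and 0 to 1 without 1 library. Without control library 1 the only fall was Tuba4a, and without control library 2 it was Tubb4b. Over a mean of at least 10 FPKM, 4780 genes and 69 microtubule list genes were called, against 9492 and 113, because fewer genes were tested. The list calls were 44 higher and 69 lower, but 37 and 32 over that minimum and 36 and 82 under median-ratio scaling. Knockout over control, the alpha sum was 1.03 and the beta sum 1.12 under median-ratio scaling, where the alpha sums overlapped. With every alpha-tubulin and beta-tubulin gene counted (chosen after seeing the data) the alpha sum reversed to 0.804 and the ratio moved to 1.46. Of 525 values of other named genes 9 lost the call.

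Replicate numbers did not pair the libraries (correlations of deviations -0.007, -0.016 and 0.097 between same-numbered libraries). With a replicate block 9359 genes, 7 isotype genes and 107 list genes were called, and no isotype call changed. The quasi-likelihood count test was not run. Precision is lowest for Tuba4a, with 64 to 115 reads per library.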
